A study of Mus musculus with 8 samples.

Results

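The genes described here are 8 of the enzymes that make heme and the receptor that brings iron into the cell. They are Alas1, Alas2, Alad, Uros, Urod, Cpox, Ppox, Fech and Tfrc. They were chosen by name for their place in the pathway and not by their measured values, but with earlier results of these data known. The arrays hold 12 probes with these 9 names among 39429 probes and 31896 gene names. All 9 genes passed the filter on dim probes, and each was tested in 1 fit with the other genes, 19547 in all. Where a gene had several probes, the brightest stood for it, and the other probes are given below.

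Expression was measured at E10.5 in mouse embryo cells of the dorsal aorta region and the umbilical and vitelline arteries, where the first blood stem and progenitor cells arise. Females that were F1 hybrids of C57BL/6 and 129S1/SVImJ were mated to Tg(Ly6a-GFP) males, so every group came from embryos with the reporter, in which regulatory sequence of Ly6a (the gene for Sca-1) drives green fluorescent protein (GFP). All sorted cells carried CD31, VEC and ESAM. Hematopoietic cluster cells also carried Kit, endothelial cells did not, and each class was divided by GFP. Pooling 100 embryos gave 30000 cluster cells with GFP and 130000 without it, and 70000 endothelial cells with GFP and 300000 without it. Each group's RNA was divided into 2 parts that were amplified and labelled separately, so the 2 arrays of a group are divisions of 1 pool, and p-values measure only the spread between them, which is technical.

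Heme is built from glycine and succinyl-CoA. The first step, by ALA synthase, sets the rate and exists in 2 forms: Alas1, found in most cells, and the X-linked Alas2, used by red cell precursors. Alad, Uros, Urod, Cpox and Ppox carry the intermediates through porphobilinogen and the porphyrinogens to protoporphyrin, and Fech inserts iron in the mitochondrion. The transferrin receptor Tfrc takes up iron bound to transferrin. Red cell precursors, which in the embryo at this age circulate as primitive erythroid cells, need much heme and much iron.

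The promoters of Alas2, Cpox and Alas1 are shown because Alas2 and Cpox gave the widest differences by GFP in cluster cells and Alas1 the narrowest. Each line holds the 250 bases before the RefSeq start, 5′ to 3′ on the gene's strand, from RefSeq's table on GRCm38.p6. Capitals mark, on either strand, the word AGATAA, the word AGATAG, or either one with T for its first letter, words that GATA factors are known to bind.
Alas2, chrX:150547167-150547416, plus strand: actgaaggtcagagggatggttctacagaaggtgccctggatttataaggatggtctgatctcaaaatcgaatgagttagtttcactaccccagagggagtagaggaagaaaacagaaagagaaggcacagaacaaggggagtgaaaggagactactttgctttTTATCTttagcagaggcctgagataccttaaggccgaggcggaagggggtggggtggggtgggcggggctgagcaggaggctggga
Cpox, chr16:58669958-58670207, plus strand: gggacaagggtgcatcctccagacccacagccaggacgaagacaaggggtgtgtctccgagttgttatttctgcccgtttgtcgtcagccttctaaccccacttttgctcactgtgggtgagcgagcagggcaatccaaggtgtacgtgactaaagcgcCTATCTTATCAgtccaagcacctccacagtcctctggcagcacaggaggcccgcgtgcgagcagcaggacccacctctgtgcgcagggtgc
Alas1, chr9:106247955-106248204, minus strand: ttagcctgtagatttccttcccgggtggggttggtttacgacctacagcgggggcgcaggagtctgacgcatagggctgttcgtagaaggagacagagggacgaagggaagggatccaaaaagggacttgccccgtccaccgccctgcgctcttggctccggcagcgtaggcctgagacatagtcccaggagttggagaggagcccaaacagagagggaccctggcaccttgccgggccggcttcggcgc

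The table held 12 such windows for 8 of the 9 genes, since some genes have 2 starts, and none for Fech. A GATA word lay in the Alas2 window at 86 bases before the start, in the Cpox window at 91 and 86 bases (the 2 words overlap), and in the window of the other Uros start at 205 and 68 bases. The remaining windows, both of Alas1 and those of Alad, Urod, Ppox and Tfrc included, held none. Thus 3 of the 12 windows held at least 1 GATA word, against 26.5% of all 32851 windows of this length. The word CCNCNCCC, on either strand, was in 8 of the 12 windows against 45.9% of all windows, with 4 matches in Alas2, the first letters of which lie between 42 and 26 bases before the start. The E-box CACGTG was in 4 of the 12 windows (both of Alad, 1 of Uros and that of Urod) against 6.02% of all windows. These are matches of letters and not measured binding.

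Probes that read the transcripts at the points where the results turn are shown next, as the array files give them, with positions on mm9. The Alas2 probe, at chrX:147004993-147005052 on the plus strand, is the only probe for that gene, and the upstream and middle Tfrc probes, at chr16:32620470-32620529 and chr16:32624877-32625093, are the pair that differed from the brightest Tfrc probe. The middle one covers 217 bases of genome with 60 bases of sequence, so it spans a gap in the alignment.
Alas2 probe: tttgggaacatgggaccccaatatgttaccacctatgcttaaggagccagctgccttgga
Tfrc upstream probe: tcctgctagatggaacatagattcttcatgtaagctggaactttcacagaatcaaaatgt
Tfrc middle probe: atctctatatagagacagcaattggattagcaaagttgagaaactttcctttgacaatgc

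Levels are log2 of the processed signal minus the array's own 75th percentile, so 0 is the signal that 75% of the probes lie under. That percentile was a signal of 708.3 to 1477, between 55.4% and 64.5% of the probes were well above background, and no spot was saturated. Replicate 1 of every group lay on 1 slide and replicate 2 on the other. Every probe of the 9 genes was well above background on all 8 arrays, except the middle Tfrc probe on 7. All 8 endothelial markers (Cdh5, Pecam1, Esam, Kdr, Tek, Tie1, Emcn and Eng) were well above background in every group, with summed levels (levels on the linear scale, added over the list) from 82.1 to 122.

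Erythroid Alas2 separated the GFP- from the GFP+ groups. Its log2 level was 2.78 and 2.93 on the 2 arrays of GFP- cluster cells and 1.49 and 1.44 in GFP- endothelial cells. It was -1.38 and -1.30 in GFP+ endothelial cells and -1.22 and -1.10 in GFP+ cluster cells. The GFP- arrays were all higher than the GFP+ arrays, and among GFP- cells the cluster arrays were the higher pair. In the order of group means only the lowest neighbours, the GFP+ groups of both classes, did not differ beyond their spread, by 0.18 (limma, adjusted p = 0.0973).

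Housekeeping Alas1, which does the same chemistry in most cells, kept within a much narrower band. Its log2 level was 2.46 and 2.48 in GFP- cluster cells, 2.45 and 2.58 on the GFP- endothelial arrays, 2.63 and 2.72 in GFP+ endothelial cells and 2.34 and 2.37 in GFP+ cluster cells. In the order of group means, which runs from GFP+ endothelial through GFP- endothelial and GFP- cluster to GFP+ cluster cells, no neighbours differed at an adjusted p under 0.05, while the highest and the lowest group did (-0.32 in GFP+ cluster against GFP+ endothelial cells, adjusted p = 0.00949). The dimmer Alas1 probe gave the same signs in the 5 comparisons below, with a GFP difference of -0.12 in cluster cells and 0.13 in endothelial cells, neither of which passed (limma over 24364 probes, adjusted p = 0.655 and 0.566). In GFP+ cluster against GFP+ endothelial cells the dimmer probe was at -0.30 and did not pass either (adjusted p = 0.192).

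**Figure D1:**
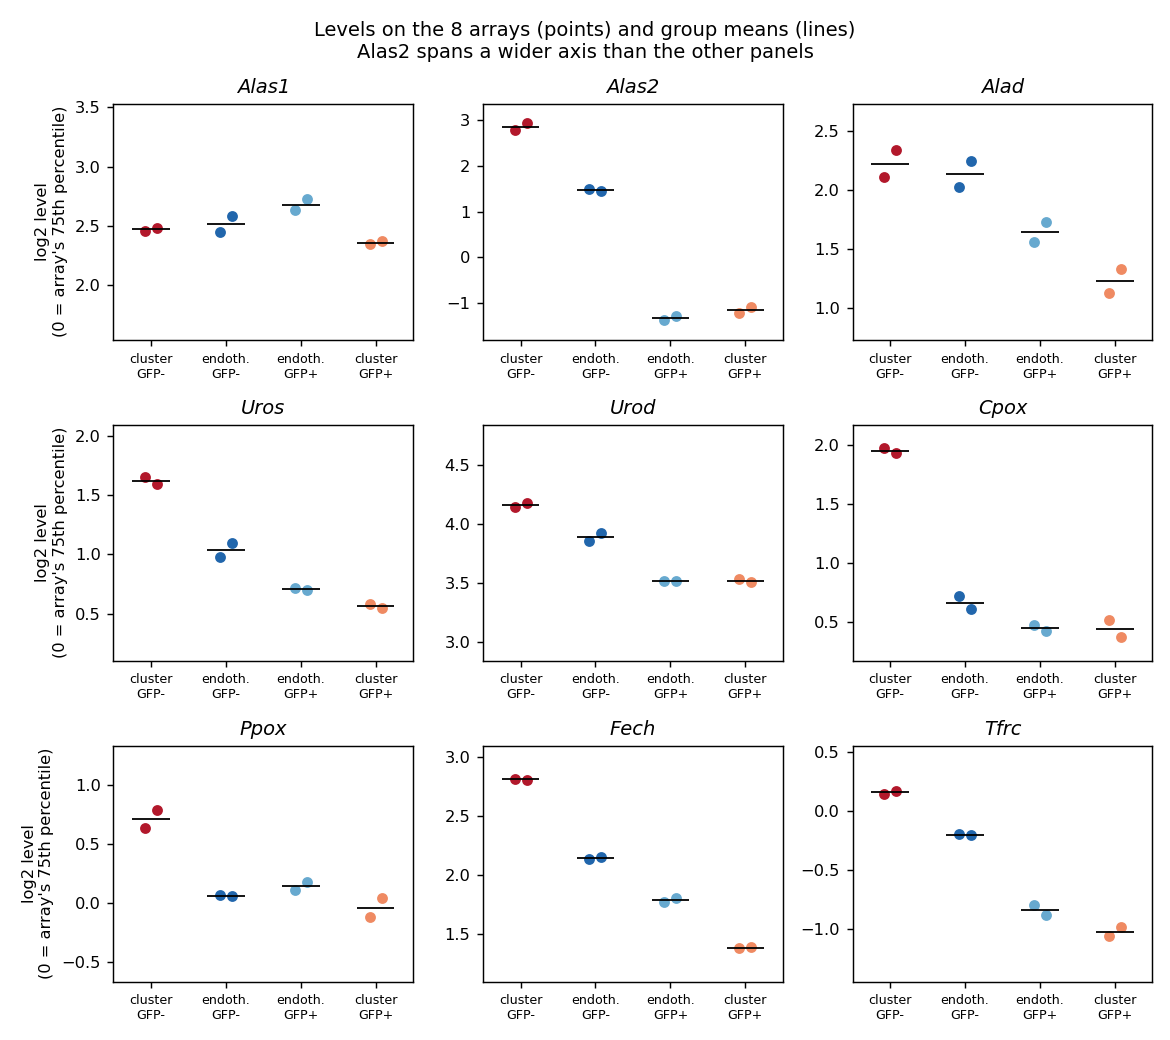
Log2 level (vertical axis, 0 at each array's 75th percentile) of the 9 genes on the 8 arrays. Points are arrays, lines are group means, and groups run from GFP- cluster cells on the left to GFP+ cluster cells on the right. GFP- cluster cells hold the highest mean for every gene but Alas1. The Alas2 panel spans a wider range than the others.

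The middle enzymes had their highest mean in GFP- cluster cells. Alad, the enzyme that joins 2 ALA molecules into porphobilinogen, had log2 levels of 2.11 and 2.34 in GFP- cluster cells, 2.03 and 2.25 on the GFP- endothelial arrays, 1.57 and 1.73 in GFP+ endothelial cells and 1.13 and 1.33 in GFP+ cluster cells. Both GFP- groups overlapped and lay above both GFP+ groups. In all 4 groups the slide 2 array was the higher, by 0.17 to 0.23, and Alad had the largest standard error of the 9 genes.

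Uros, which closes the ring to uroporphyrinogen III, had levels of 1.65 and 1.59 in GFP- cluster cells, 0.98 and 1.09 on the GFP- endothelial arrays, 0.72 and 0.70 in GFP+ endothelial cells and 0.58 and 0.55 in GFP+ cluster cells. Urod, which takes uroporphyrinogen to coproporphyrinogen, had 4.14 and 4.17, then 3.86 and 3.92, then 3.51 and 3.52, then 3.53 and 3.51 in the same order. The GFP+ groups were the lowest pair for both genes and did not differ from each other at this threshold, by 0.14 for Uros (adjusted p = 0.0795) and 0.0034 for Urod (adjusted p = 0.955).

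Cpox, the coproporphyrinogen oxidase of the mitochondrial membrane space, had levels of 1.97 and 1.94 in GFP- cluster cells. Its 3 other groups lay close together, at 0.72 and 0.61 in GFP- endothelial cells, 0.48 and 0.43 in GFP+ endothelial cells and 0.52 and 0.38 in GFP+ cluster cells. Ppox, which makes protoporphyrin, showed the same shape at 0.64 and 0.79 in GFP- cluster cells, 0.11 and 0.18 on the GFP+ endothelial arrays, 0.07 and 0.06 in GFP- endothelial cells and -0.12 and 0.04 in GFP+ cluster cells. For both genes GFP- cluster cells stood above the other groups without overlap. The remaining neighbours differed for Cpox only between GFP- and GFP+ endothelial cells, and for Ppox not at all.

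Fech, the ferrochelatase that adds the iron, fell into 4 steps. It was 2.81 on both arrays of GFP- cluster cells, 2.13 and 2.15 on the GFP- endothelial arrays, 1.77 and 1.80 in GFP+ endothelial cells and 1.38 and 1.39 in GFP+ cluster cells. No groups overlapped, and every neighbour differed (limma, adjusted p from 0.000573 to 0.00149).

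Tfrc followed the same order by its brightest probe, which lies farthest downstream and is printed on 10 spots of each array. Its log2 level was 0.15 and 0.17 in GFP- cluster cells, -0.19 and -0.21 on the GFP- endothelial arrays, -0.80 and -0.88 in GFP+ endothelial cells and -1.06 and -0.98 in GFP+ cluster cells. The spots of 1 array differed with an SD of 0.0423 to 0.103. No groups overlapped, and the lowest neighbours, GFP+ endothelial and GFP+ cluster cells, were 0.18 apart (adjusted p = 0.0305).

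In cluster cells, 8 of the 9 genes were lower in GFP+ than in GFP- cells, none was higher, and Alas1 did not pass. Over all genes tested, 32.7% passed in either direction and 20.9% were lower, and the median log2 difference was -0.08 for all genes and -1.06 for the 9. Alas2 fell by 4.01 ± 0.08 on the log2 scale (SE, 2 arrays a group; limma, adjusted p = 9.61e-06), which is 16.1-fold and the 10th lowest difference of the 19547. Cpox was lower by 2.84-fold (log2 -1.51 ± 0.07), Fech by 2.69-fold (-1.43 ± 0.04) and Tfrc by 2.27-fold (-1.18 ± 0.05). The other enzymes gave log2 differences of -1.06 for Uros, -1.00 for Alad, -0.75 for Ppox and -0.64 for Urod, with adjusted p from 0.000135 to 0.00294.

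Alas1 differed by -0.11 ± 0.06 in the same cells (adjusted p = 0.232). The difference between the 2 synthases was tested as a row of its own, log2 Alas2 minus log2 Alas1 on each array, and differed by -3.90 ± 0.08 (limma, adjusted p = 1.28e-05). All 8 called genes had the same sign on both slides, and their calls held without any single array. With normexp background correction over all spots 3 of the 8 calls remained, those of Alas2, Cpox and Tfrc.

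Markers of red cells moved with these genes. Of 17 measured erythroid markers, 16 were lower in GFP+ cluster cells, with a median log2 difference of -3.57, and the other, Ermap, was at -0.38 by its brightest probe (adjusted p = 0.0504). The 2 dimmer Ermap probes were lower too, at -3.56 and -3.96 (adjusted p = 0.00164 and 5.95e-06). The summed level of the 17 markers, by their brightest probes, was 1129 and 1146 on the GFP- arrays and 150.1 and 151 on the GFP+ arrays. On both GFP+ arrays 13 of the 17 were well above background, the globins, Klf1 and Gata1 among them, while Ank1 and Epb42, which encode membrane proteins of the red cell, were not. The sort asked for endothelial surface proteins in every group and not for absence of red cell proteins. Fewer cells of a type and less RNA per cell cannot be told apart in such bulk samples, and the part of these markers in the heme gene result was not tested.

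Other markers moved too. All 8 blood cell markers (Ptprc, Runx1, Itga2b, Spn, Myb, Gfi1, Coro1a and Vav1) and all 8 macrophage markers were higher in GFP+ than in GFP- cluster cells, with median log2 differences of 1.93 and 1.85. Their summed levels were 40.3 to 41.6 against 10.2 to 10.3 for blood cell and 27.8 to 28.4 against 10.2 to 10.51 for macrophage markers. On both GFP- cluster arrays 7 of the 8 macrophage markers were well above background, Cd68 being the exception. Of 8 mesenchyme markers 6 were lower and 1 higher, with summed levels of 10.8 to 10.9 against 16.5 to 16.6, and 4 of 8 endothelial markers were lower, with a median of -0.23. Their part in the result was not tested either.

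In endothelial cells the direction was the same and the sizes were smaller. GFP+ cells were lower for 7 of the 9 genes and higher for none, where 51.5% of all genes passed, 33.4% lower and 18.1% higher. The median difference was -0.36 for the 9 genes and -0.13 for all genes. Alas2 was 6.98-fold lower (log2 -2.80 ± 0.08; limma, adjusted p = 4.19e-05), the 19th lowest difference of all genes, and Tfrc 1.56-fold lower (-0.64 ± 0.05, adjusted p = 0.000578). Fech, Urod and Uros were lower at -0.36, -0.37 and -0.33, which put them between percentiles 27.35 and 30.81 of all genes, well inside the range that many genes showed here.

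Alad (-0.49, adjusted p = 0.0229) and Cpox (-0.21, adjusted p = 0.0448) passed less firmly. The Alad call was lost without replicate 2 of GFP- or replicate 1 of GFP+ endothelial cells (adjusted p = 0.11 and 0.104) and with quantile normalization (0.0503), and the Cpox call without any 1 of 6 arrays, both GFP+ cluster arrays being the exceptions (0.0596 to 0.184). Both calls were also lost with no filter on dim probes (0.0571 for Alad and 0.113 for Cpox). Apart from single arrays left out, the Cpox call was lost in 5 settings, quantile normalization (0.053) among them. Ppox was at 0.08 (adjusted p = 0.429). Alas1 was at 0.16 ± 0.06 (adjusted p = 0.082), and passed as higher with the slide as a block (0.0432) or with quantile normalization (0.26, adjusted p = 0.0179). Quantile normalization also moved the share of higher genes among all calls from 35.2% to 48.3%.

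Alas2 minus Alas1 was lower in GFP+ endothelial cells, at -2.96 ± 0.08 (limma, adjusted p = 4.28e-05). The erythroid markers again moved alongside, 16 of 17 lower with a median of -2.30 and a summed level of 162 to 170 on the GFP+ arrays against 746 to 770 on the GFP- arrays. On both GFP+ endothelial arrays 13 of the 17 were well above background, and Ank1 and Epb42 again were not. Macrophage markers were higher for 8 of 8 (10.3 to 10.8 against 4.85 to 4.9) and blood cell markers for 6 of 8 (4.5 to 4.57 against 2.61 to 2.69). On both GFP- endothelial arrays 5 of the 8 macrophage markers were well above background, and Lyz2, Cd68 and Timd4 were not. Cd68 was not on both GFP+ endothelial arrays either. Of the 8 mesenchyme markers 6 were lower and 1 higher, with a median of -0.53 and summed levels of 17.29 to 18.02 against 22.56 to 23.01. Of the 8 endothelial markers 3 were higher and 2 lower, and with quantile normalization 5 were higher and none lower. The part of these lists in the result was not tested.

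**Figure D2:**
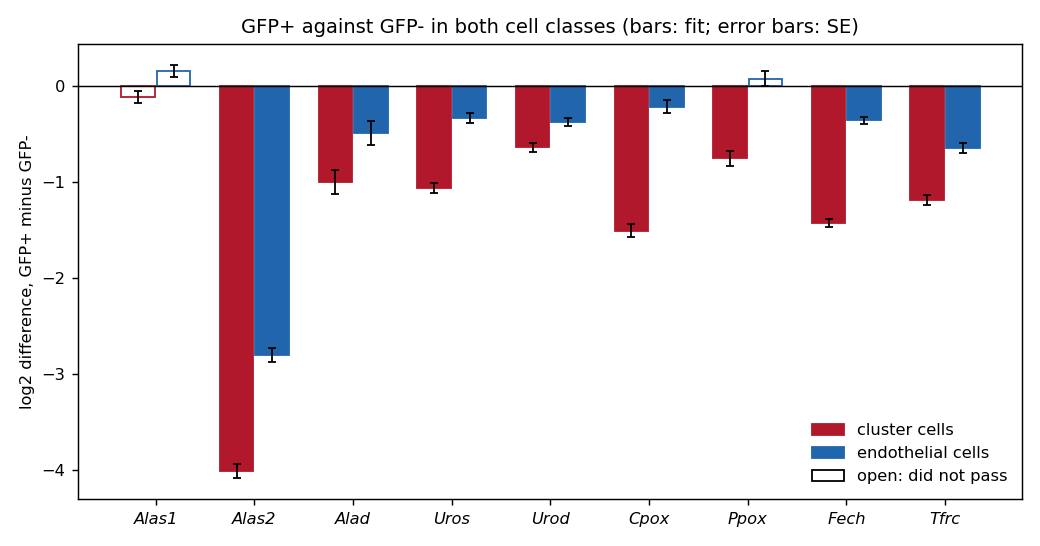
Log2 difference, GFP+ minus GFP- (vertical axis), for the 9 genes in cluster cells (red) and endothelial cells (blue). Bars are fitted differences with standard errors, and open bars did not pass. Alas2 reaches -4.01 and -2.80, and the open bars are Alas1 in both classes and Ppox in endothelial cells.

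The GFP difference itself differed between the classes for 7 of the 9 genes, all more negative in cluster cells, where 31.1% of all genes passed this interaction and 15.4% were negative. The interaction was -1.29 ± 0.10 for Cpox, -1.21 ± 0.11 for Alas2 and -1.07 ± 0.06 for Fech (limma, adjusted p = 0.00169, 0.00231 and 0.00125). Ppox had -0.83 and Uros -0.73, and Urod had -0.27, a call lost without any 1 of 7 arrays (adjusted p = 0.06 to 0.0875), replicate 2 of GFP- endothelial cells being the exception. Alad (-0.51, adjusted p = 0.0828) and Alas1 (-0.28, adjusted p = 0.0683) did not pass, but both did with the slide as a block (adjusted p = 0.0066 and 0.038). Tfrc had -0.54 by its brightest probe (adjusted p = 0.00609), but 0.06 and 0.31 by the middle and upstream probes (adjusted p = 0.551 and 0.184). Of the 17 erythroid markers 14 also had a negative interaction, with a median of -1.32, and of the 8 blood cell markers 6 had a positive and 1 a negative one. The part of these lists in the interaction was not tested.

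The 2 classes were then set against each other within each GFP state, on the same 8 arrays, so these comparisons share arrays with those above. Among GFP- cells, 7 genes were higher in cluster than in endothelial cells and none was lower, where 24.2% of all genes passed and 11.8% were higher. Alas2 was 2.62-fold higher (log2 1.39 ± 0.08), Cpox 2.44-fold (1.29 ± 0.07), Fech 1.59-fold (0.67), Ppox 1.57-fold (0.65), Uros 1.50-fold (0.59), Tfrc 1.28-fold (0.36) and Urod 1.21-fold (0.27), with adjusted p from 0.000398 to 0.0127. Alas1 was at -0.05 and Alad at 0.09 (adjusted p = 0.656 and 0.667). The Urod call was lost without replicate 1 of GFP- endothelial cells or either GFP- cluster array (0.059 to 0.0755), and the Tfrc call without replicate 2 of GFP- cluster cells (0.0559). All 17 erythroid markers were higher in GFP- cluster cells, with a median of 1.30. Blood cell markers were higher for 7 of 8 (median 2.00) and macrophage markers for 7 of 8 (1.25), while 6 of 8 endothelial (-0.26) and 6 of 8 mesenchyme markers (-0.41) were lower. The part of these lists in the 7 higher genes was not tested.

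Among GFP+ cells the log2 differences between the classes stayed between -0.42 and 0.18. Of the 9 genes 4 were lower in cluster cells, none was higher and 5 did not pass, where 50.3% of all genes passed and 24.2% were lower. Fech was lower by log2 -0.40 ± 0.04 and Alas1 by -0.32 ± 0.06 (adjusted p = 0.000833 and 0.00949). With the mean of its probes the Alas1 call was lost (-0.31, limma, adjusted p = 0.0613). Alad was at -0.42 (adjusted p = 0.0379), a call lost without either GFP+ endothelial array or replicate 1 of GFP+ cluster cells (0.0612 to 0.151). The Alad call was also lost in 6 other settings, quantile normalization (0.0549) and no filter on dim probes (0.077) among them. Alas2 minus Alas1 was 0.50 ± 0.08 higher in GFP+ cluster cells (adjusted p = 0.00464), from 0.18 for Alas2 (adjusted p = 0.0973) and the value for Alas1. Of the 17 erythroid markers 5 were higher and 3 lower, with a median of 0.11. The other lists moved more. All 8 blood cell and all 8 macrophage markers were higher in GFP+ cluster cells (medians 3.10 and 1.90), and all 8 endothelial and 7 of 8 mesenchyme markers were lower (-0.63 and -0.71). Their part in the 4 lower genes was not tested.

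**Figure D3:**
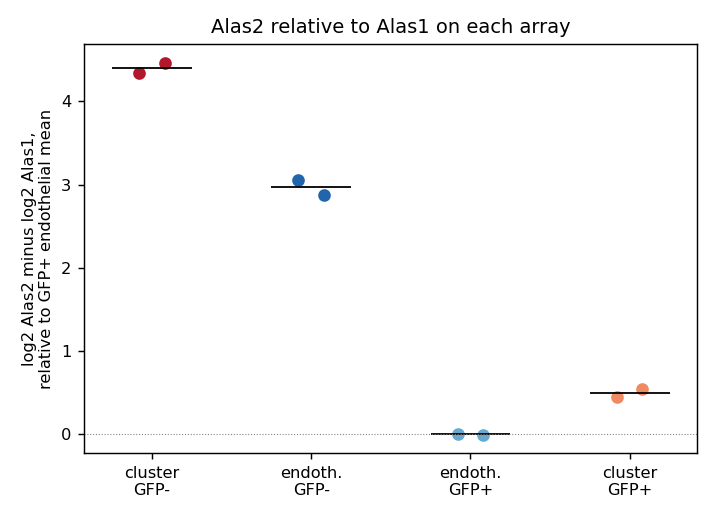
Log2 Alas2 minus log2 Alas1 on each of the 8 arrays (points) with group means (lines), set to 0 at the mean of GFP+ endothelial cells. GFP- cluster arrays lie at 4.33 and 4.46, GFP- endothelial arrays at 3.06 and 2.87 and GFP+ cluster arrays at 0.45 and 0.55.

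The direction of Tfrc among GFP+ cells depended on the probe. The downstream probe was lower in cluster cells (-0.18, a call lost without any 1 of 6 arrays, adjusted p = 0.053 to 0.14), while the middle and upstream probes were higher, by 0.78 ± 0.05 and 0.94 ± 0.11 (limma over 24364 probes, adjusted p = 0.000203 and 0.00146). By the upstream probe, the log2 level was 0.27 and 0.20 in GFP- cluster cells, -0.26 and -0.53 on the GFP- endothelial arrays, -0.93 and -1.15 in GFP+ cluster cells and -1.94 and -2.01 on the GFP+ endothelial arrays. By the middle probe it was -3.02 on both arrays of GFP- cluster cells, -3.71 and -3.77 on the GFP- endothelial arrays, -3.99 and -3.92 in GFP+ cluster cells and -4.73 and -4.74 on the GFP+ endothelial arrays. The GFP+ groups thus changed places in the order. In both GFP comparisons all 3 probes were lower in GFP+ cells, at -1.27, -0.94 and -1.18 in cluster cells and -1.58, -1.00 and -0.64 in endothelial cells, from upstream to downstream.

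**Figure D4:**
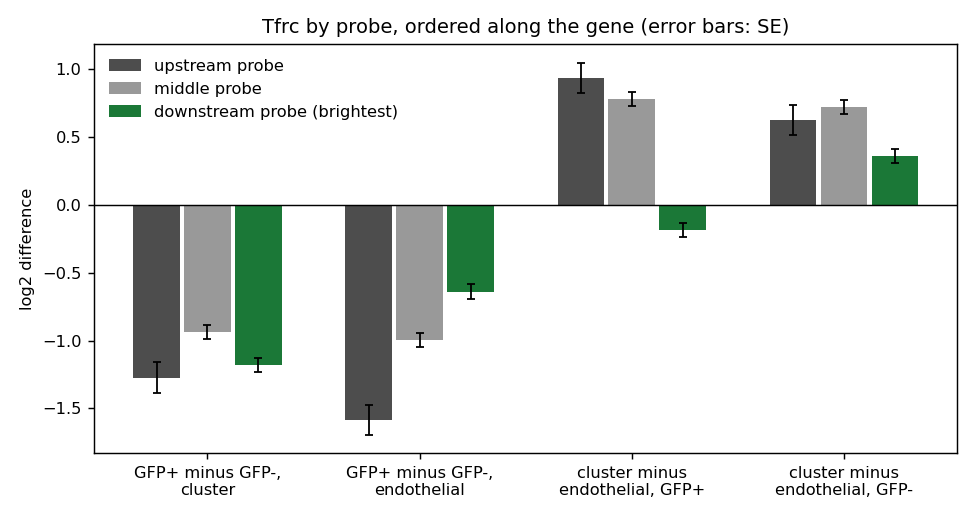
Log2 difference (vertical axis) by each of the 3 Tfrc probes in 4 comparisons, from the upstream to the downstream probe, with standard errors. The 3 probes share a sign in 3 comparisons. Among GFP+ cells the downstream probe is at -0.18 and the others at 0.94 and 0.78.

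Across the diagonal, GFP+ cluster cells were lower than GFP- endothelial cells for 7 of the 9 genes, where 50.5% of all genes passed and 31.4% were lower. Alas2 was 6.16-fold lower in them (log2 -2.62). GFP- cluster cells were higher than GFP+ endothelial cells for 8 genes, where 47.1% passed and 31.4% were higher, with Alas2 18.3-fold higher (log2 4.19, adjusted p = 7.33e-06). Alas1 went the other way there, at -0.21 (adjusted p = 0.0436).

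The genes with the pattern most like each of the 2 synthases and the receptor were found by the root mean square difference of log2 levels over the 8 arrays, each gene centred on its own mean, among 13981 tested genes with a symbol. The nearest to Alas2 included Rhd (0.091), Epb42 (0.178), Ahsp (0.273) and Slc4a1 (0.282), which are on the erythroid marker list. Rhd is a blood group protein of the red cell membrane, Slc4a1 the red cell anion exchanger and Ahsp the chaperone of alpha globin. Rhd was at -4.16 and -2.78 for GFP+ against GFP- in cluster and endothelial cells, beside -4.01 and -2.80 for Alas2. Epb42 was well above background on 4 arrays only, so its likeness rests in part on dim signals.

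For Tfrc, read by its brightest probe only, the nearest were Frem1 (0.0412), Homer2 (0.0862), Fam183b (0.0923), Spry1 (0.115) and Serinc2 (0.119). None of these genes is on the erythroid list. The other Tfrc probes, which put the GFP+ groups in the opposite order, were not searched. Frem1 encodes an extracellular matrix protein and Spry1 an inhibitor of growth factor signalling, and both were lower in GFP+ cells of both classes, at -1.23 and -0.69 for Frem1. For Alas1 they were Eif3g, Timm29, Rab33b, Slbp and Trub2, at 0.0283 to 0.0357. A gene that varies little has many such neighbours.

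The rest of the pathway was read from lists of genes. Beside their counts stand the shares of all genes, 11.8% higher and 20.9% lower by GFP in cluster cells, and 18.1% higher and 33.4% lower in endothelial cells. Of 9 other genes of heme synthesis and its transport, 7 were lower and none higher in GFP+ cluster cells, with a median of -0.41, and 5 were lower and none higher in GFP+ endothelial cells, with a median of -0.22 where that of all genes was -0.13. Abcb10, a mitochondrial transporter needed in heme-making red cells, was at -1.39 ± 0.07 in cluster cells and -0.45 ± 0.07 in endothelial cells (adjusted p = 0.000107 and 0.00378), and Slc25a38, the mitochondrial carrier that supplies glycine, at -0.44 and -0.32. Tspo and Clpx passed in neither class. With quantile normalization 1 of the 9 passed as higher in each class, Tspo in cluster cells (0.26) and Tmem14c in endothelial cells (0.19).

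Genes of iron uptake, transport and storage went both ways. Of 17, 3 were higher and 6 lower in GFP+ cluster cells (median -0.12), and 4 higher and 8 lower in GFP+ endothelial cells (median -0.17), beside 32.7% and 51.5% of all genes called either way. Of the 12 endothelial calls, that of Fbxl5 (0.22) had the opposite sign by its other probe (-1.20, adjusted p = 0.00144), and that of Trf (-0.29) was at 0.06 by its other probe (adjusted p = 0.431). Pcbp2 (-0.43) was at -0.07 by its other probe (limma, adjusted p = 0.464), and its call was lost with quantile normalization (0.182). Slc25a37 (mitoferrin 1, which carries iron into the mitochondria of red cell precursors) was at -1.96 ± 0.05 and -0.52 ± 0.05 by its brightest probe and at -2.23 and -1.36 by the other. The size in endothelial cells thus depended on the probe. Also lower was Tfr2, the second transferrin receptor, at -1.14 and -1.33. Steap3, the endosomal reductase that works with Tfrc, was at -0.77 and -0.91. Higher in GFP+ cells were Slc40a1 (ferroportin, the iron exporter) at 1.09 and 0.30, and Hfe, a partner of the transferrin receptors, at 0.82 and 0.75, and in endothelial cells Snx3 at 0.56.

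The ferritin chains, which store iron, depended on the scaling. Ftl1 was at -0.05 (adjusted p = 0.457) in cluster and -0.27 (0.00564) in endothelial cells, and with quantile normalization at 0.13 in both (0.0607 and 0.0477), so its sign turned. Fth1 was at -0.15 and -0.13 (adjusted p = 0.104 and 0.11), and at 0.23 in endothelial cells with quantile normalization (0.0116). With that normalization 6 of the 17 genes were higher and 4 lower in GFP+ endothelial cells.

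Heme export, breakdown and sensing was mixed as well. Of 10 genes, 4 were higher and 5 lower in GFP+ cluster cells (median -0.06), and 2 higher and 2 lower in GFP+ endothelial cells (median -0.03), where 51.5% of all genes passed. Hmox1, the inducible heme oxygenase, was at 0.13 in cluster cells (adjusted p = 0.224) and 0.61 ± 0.07 in endothelial cells (0.00158) by its brightest probe. Its other probe was at 0.10 in endothelial cells (adjusted p = 0.338), so that call rests on 1 of 2 probes. Blvrb, a biliverdin reductase abundant in red cells, was at -1.24 and -0.84, and the heme exporter Flvcr1 at -0.67 in cluster cells and -0.27 in endothelial cells (adjusted p = 0.0938). Slc48a1, which moves heme out of lysosomes and is used by macrophages, was at 1.13 in cluster cells and 0.12 in endothelial cells (adjusted p = 0.0801). Flvcr2 was at 1.15 and 0.87, the latter lost with quantile normalization (0.108), and Abcg2 at -0.28 in endothelial cells was lost likewise (0.242). All 8 macrophage markers, some of them dim in GFP- groups, were higher in GFP+ cells of both classes. They stand beside Slc48a1, Slc40a1 and Hmox1, and their part in those values was not tested.

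Iron-sulfur cluster assembly, the other use of mitochondrial iron, gave few calls in cluster cells by the brightest probes. Of 9 genes 1, Glrx5, was lower in GFP+ cluster cells, at -0.40 ± 0.09 (adjusted p = 0.0223, and 0.0624 with quantile normalization), and the list's median was -0.06. By their other probes Isca1 and Bola3 passed as lower there too, both at -0.30 (limma over 24364 probes, adjusted p = 0.00968 and 0.0259). With quantile normalization 1 of the 9 was higher in GFP+ cluster cells and none lower by the brightest probes. In endothelial cells 1 was higher and 3 lower, with a median of 0.03. Isca1 was at 0.61 by its brightest probe and at -0.06 by another (adjusted p = 0.38), Bola3 at -0.58 and Glrx5 at -0.30. With quantile normalization the Glrx5 call was lost there too (-0.09, adjusted p = 0.439), and 2 of the 9 were higher and 2 lower.

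**Figure D5:**
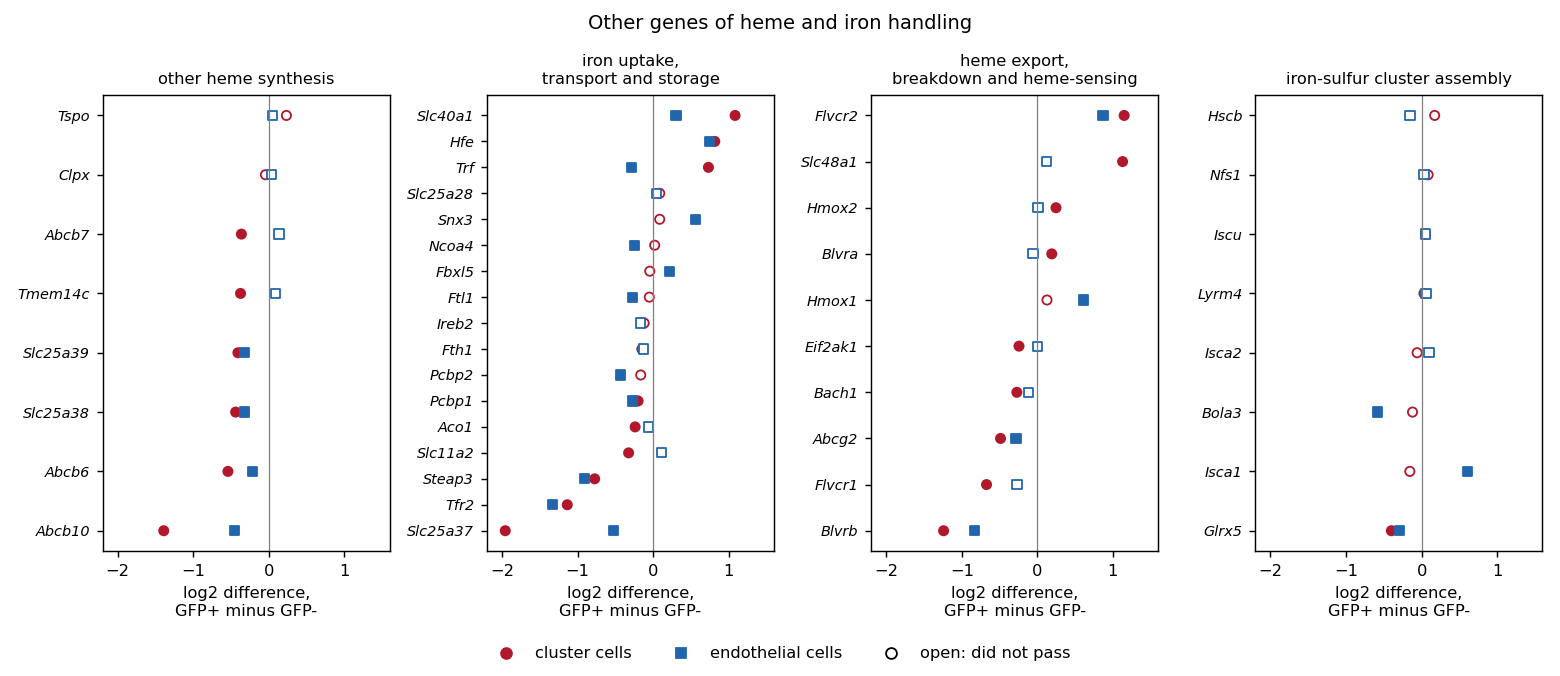
Log2 difference, GFP+ minus GFP- (horizontal axis), of genes from the 4 lists in cluster cells (red circles) and endothelial cells (blue squares). Open symbols did not pass. Abcb10 and Slc25a37 lie farthest to the left in cluster cells, at -1.39 and -1.96.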

How the data were processed

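RNA of 4 sorted groups was measured on 8 1-colour Agilent arrays, 2 a group. Per the file headers, the deposited intensity values came from the scanner software, Agilent Feature Extraction 10.10.1.1, whose processed signal has the background removed. A second set of intensity values, the authors' normalized table, served as an alternative. Its normalization method was not stated (not given in the sources used here). Its rows matched the spots in running order (log2 values, r = 0.997 to 1 against the scanner signal), its scale was linear and all columns had 1 median, 198.

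Outlier spots were left out (10 probes lost), spots of a probe were averaged (43020 spots, 39429 probes), and log2 signals were set to each array's 75th percentile. Probe names were updated by RefSeq accession, in a GRCm38.p6 table used for names and promoters only: 26055 matched, 3195 already had a current symbol and 10179 kept the file's name. The brightest probe stood for a gene, if it was well above background on the 2 arrays of some group. One limma 3.58.1 fit in R 4.3.3 gave all comparisons (4 residual degrees of freedom, two-sided, Benjamini-Hochberg over all genes, threshold 0.05), after a test on simulated data. Errors are its standard errors. The files were read by data.table (version 1.17.8), and figures drawn with matplotlib 3.10.9.

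Replicate numbers mark the slide. The replicate differences of any 2 groups correlated at 0.138 to 0.359 over genes in all 6 pairs of groups. Arrays are therefore paired by number. The main fit did not use this pairing, and the slide was tried as a block. Position on the slide cannot be told apart from group. Named are the 9 genes with all their probes, up to 2 of the largest called changes each way from each list, Slc25a37, Hmox1 and the ferritins in any case, and the 5 genes most like Alas2, Tfrc and Alas1. The genes, lists and comparisons were chosen with earlier results of these data known, and the promoter words with the sequences in view. Tspo, Clpx, Tmem14c, Fbxl5, Trf, Pcbp2, Flvcr1 in endothelial cells, Slc48a1 in endothelial cells and the marker genes named singly were added after their values were seen. Some genes that this rule names are not reported here singly and count only within their lists.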

Additional observations from a re-analysis of the deposited data

Results flagged for a closer look

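The GFP difference was not the same in both cell classes for 7 of the 9 genes and for Alas2 minus Alas1, by the interaction in the limma fit. As log2 differences, GFP+ minus GFP- in cluster cells minus the same in endothelial cells, the values were -1.29 for Cpox (adjusted p = 0.00169), -1.21 for Alas2 (0.00231), -1.07 for Fech (0.00125), -0.83 for Ppox (0.00609), -0.73 for Uros (0.00355), -0.54 for Tfrc (0.00609), -0.27 for Urod (0.0279) and -0.93 for Alas2 minus Alas1 (0.00496). Cpox and Ppox reached -1.51 and -0.75 in cluster cells against -0.21 and 0.08 in endothelial cells, whereas Alas2 was far lower in GFP+ cells of both classes. The Tfrc value rests on 1 of its 3 probes, and the sign differed for the others (0.06 and 0.31, neither past the threshold).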

How the results depend on the processing

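Each call among the 9 genes kept its sign under all alternatives but 1. For Tfrc in GFP+ cluster against GFP+ endothelial cells, the mean of its probes gave 0.51 (adjusted p = 0.00106) in place of -0.18, since its other probes were higher there. Normexp background correction over all spots left 3 of 8 genes called by GFP in cluster cells, 1 of 7 by GFP in endothelial cells and 0 of the 9 among GFP+ cells, among GFP- cells and in the interaction, and over all genes it called 127, 100, 136, 14 and 1. Under it Alas2 minus Alas1 was 0.45 among GFP+ cells (adjusted p = 0.236), 1.36 among GFP- cells (0.0656) and -0.92 in the interaction (0.379). With the 5 lowest spots of each array set aside first, 8, 7, 3, 7 and 6 of the 9 genes passed. Among GFP+ cells the count of 4 became 2 with no filter on dim probes, 2 with only the compared groups in the fit and 7 with trend and robust moderation, and ran from 2 to 4 as single arrays were left out. With the slide as a replicate block, 8, 8, 4, 7 and 9 of the 9 genes passed, and no call of the 9 genes was lost. Over 801 single-gene values, 709 kept their side of the threshold, 77 lost the call and 14 gained it. Calls over all genes moved by over 1.5 times, from 6396 by GFP in cluster cells to 3792 with no filter and 3676 or 4071 without replicate 1 or 2 of GFP- cluster cells. Among GFP- cells they moved from 4732 to 1467 with no filter, 2577 with only the compared groups, 2734 with the trimmed normexp and 1606 to 2012 as arrays were left out, and in the interaction from 6081 to 2743, 3760 (no filter, trimmed normexp) and 3589 to 3903. The interaction was not run on compared groups alone, since it needs all 4. The cause of these changes was not tested. With 2 arrays a group made from divided RNA, the number of arrays limits the precision.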
